A study of Danio rerio with 12 samples.

Results

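Zebrafish (Danio rerio) larvae injected with serotonin (5-hydroxytryptamine, 5-HT) were compared with larvae injected with reserpine at 2 days post fertilisation (dpf). The comparison used 4 of the 12 arrays of the series, 2 with 5-HT and 2 with reserpine, and covered every feature of an Affymetrix zebrafish gene array. The 2 control arrays of 2 dpf were set beside them, and the same contrast at 4 dpf was used where the days were compared. The arrays were chosen by their labels, and no measured value entered that choice.

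All groups were whole larvae of the wild-type AB line, dechorionated with Proteinase K, and each injection used a KCl solution with the fluorescent tracer TRITC-dextran. The 5-HT group received 5-HT in this solution, the reserpine group received reserpine that had been taken up in ethanol and then DMSO, and the control group received the solution with DMSO and ethanol. The labels do not say whether the 5-HT solution held DMSO or ethanol, and the sources used here give no dose. The sample titles place the 5-HT and reserpine injections at the zygote stage. Each array measured the RNA of a pool of 30 to 40 larvae and was labelled as 1 of 2 biological replicates, so the spread between replicates is one between pools. In whole larvae, fewer cells of a type and less RNA per cell cannot be told apart.

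Serotonin is made from tryptophan by tryptophan hydroxylase (tph) and aromatic amino acid decarboxylase (ddc). Serotonergic neurons load it into vesicles through the vesicular monoamine transporter (slc18a2), recover it through the plasma membrane transporter (slc6a4) and break it down with monoamine oxidase (mao). Reserpine blocks the vesicular transporter and thereby empties monoamine stores, dopamine and noradrenaline included, so the contrast sets added serotonin against a block of monoamine storage.

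All array medians in the series lay between 6.44 and 6.56 on the log2 scale. One sample description, that of reserpine replicate 2 of 4 dpf, speaks of 2-day larvae although its title and age label say 4 dpf. The mean of 20 exocrine pancreas genes on that array was 11.31, just below the 11.39 to 11.66 of the other 4 dpf arrays and above the 6.53 to 8.01 of the 2 dpf arrays.

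The 2 reserpine arrays of 2 dpf lay on opposite sides of the main axis of variation. In a principal component analysis of the 6 arrays of 2 dpf, the 5-HT arrays had scores of 39.2 and 56.0 on component 1 (39.8% of variance). The reserpine arrays had scores of 29.3 for replicate 1 and -30.9 for replicate 2, and the control arrays had -54.8 and -38.9. On component 1 reserpine replicate 1 therefore lay beside the 5-HT arrays and reserpine replicate 2 beside the controls. On component 3 (15.7%) reserpine replicate 1 scored -43.1, against 3.0 and 33.7 for the 5-HT arrays. The control arrays there scored 29.5 and -21.2, and reserpine replicate 2 scored -1.8. Pearson correlations across the tested features are given as a description. Reserpine replicate 1 correlated at 0.986 with 5-HT replicate 1, at 0.977 with 5-HT replicate 2 and at 0.975 with reserpine replicate 2. Reserpine replicate 2 correlated at 0.990 with control replicate 2 and at 0.978 with control replicate 1. The higher value of each pair was thus between arrays of the same replicate number, and across numbers the values were close to that between the reserpine arrays. With the controls, reserpine replicate 1 correlated at 0.971 for replicate 1 and at 0.975 for replicate 2. The latter was close to its 0.977 with 5-HT replicate 2. Component 2 (26.4%) separated the replicate numbers, with scores of 28.5 and -32.4 for the 5-HT arrays, 27.5 and -35.2 for the reserpine arrays and 46.8 and -35.3 for the control arrays.

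**Figure D1:**
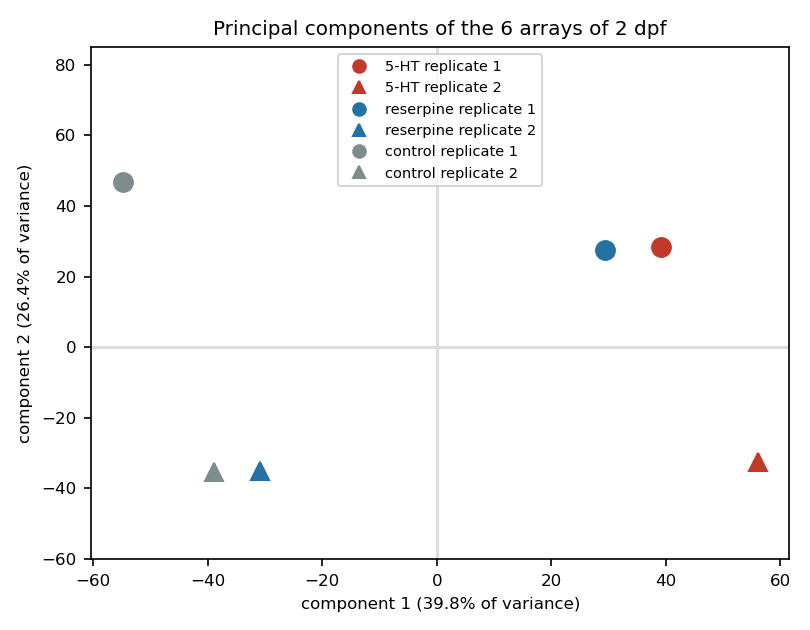
Scores of the 6 arrays of 2 dpf on components 1 and 2 of their log2 values, with colour for the group and shape for the replicate number. Reserpine replicate 1 (29.3) lies on the side of the 5-HT arrays on component 1 and reserpine replicate 2 (-30.9) on the side of the controls, while component 2 separates the replicate numbers in each group.

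The 5-HT replicates differed from each other by more than 1 on the log2 scale at 1290 features (2.22%), the reserpine replicates at 2060 (3.54%) and the control replicates at 1925 (3.31%). The SD of the difference between replicates was 0.38 in the 5-HT group, 0.44 in the reserpine group and 0.42 in the control group. In 12394 of 18407 genes (67.3%), the reserpine replicates differed from each other by more than the 5-HT mean differed from the reserpine mean. Most genes would show this without any group difference, since single arrays vary more than means. The share for the 5-HT replicates was not counted. Because the reserpine arrays lay apart on component 1, medians of gene groups are given against both reserpine arrays and against each one alone. Since component 2 separated the replicate numbers, those of the lens, photoreceptor and exocrine pancreas lists are also given between arrays of the same number. The lists were drawn up with earlier results of these data known. Their shares and medians are therefore a description and were not tested.

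No gene passed the test between 5-HT and reserpine larvae at 2 dpf. With limma across all 12 arrays, 0 of 58127 features (0%) had a Benjamini-Hochberg adjusted p under 0.05, whereas 3513 (6.04%) had an unadjusted p under 0.05, against 2906 given by chance. Among the 18407 named genes 466 (2.53%) had an unadjusted p under 0.05 in limma, a smaller share than that threshold gives by chance. Of these, 287 (1.56%) were higher and 179 (0.972%) lower in 5-HT larvae, and the smallest adjusted p of a named gene was 0.772. The feature with the smallest adjusted p in limma, 0.0767, carried no gene name. It read 5.20 and 5.39 in 5-HT larvae, 3.53 and 3.53 in reserpine larvae and 2.80 and 3.18 in controls, a log2 difference of 1.76 (SE 0.17). Both 5-HT arrays lay above both reserpine arrays in 3110 genes (16.9%) and below both in 2015 (10.9%), together 27.8%. With 2 arrays a group, such a lack of overlap is common without any group difference, so it is given as a description.

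The precision bounds what these 4 arrays could show. The median standard error of a difference was 0.20 on the log2 scale, and the median 95% interval reached 0.44 to either side. In 17534 genes (95.3%) the whole 95% interval, which is not adjusted for the number of genes, lay within a 2-fold difference in either direction. The median difference over all genes was 0.03 with an SD of 0.19, and 9 genes differed by 1 or more on the log2 scale, 6 of them higher and 3 lower in 5-HT larvae.

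The genes that make, move and break down serotonin showed no difference that passed the test. Of 18 measured, 11 had a higher mean in 5-HT larvae (61.1%, against 54.8% of all genes), 5 (27.8%, against 16.9% of all genes) lay above both reserpine arrays on both 5-HT arrays and 1 (5.56%, against 10.9%) below. The median difference was 0.06, against 0.03 over all genes, and it was 0.11 against reserpine replicate 1 and 0.01 against replicate 2. The serotonin reuptake transporter slc6a4a read 10.45 and 10.28 in 5-HT larvae, 10.11 and 9.98 in reserpine larvae and 9.92 and 9.85 in controls. Both 5-HT arrays lay above both reserpine arrays, with a log2 difference of 0.32 (SE 0.14, 95% interval 0.01 to 0.63, adjusted p = 0.818). At 4 dpf slc6a4a read 10.25 and 10.03 with 5-HT and 10.34 and 10.30 with reserpine, a difference of -0.18. Its paralog slc6a4b read 6.68 and 6.87 in 5-HT larvae, 6.60 and 6.57 in reserpine larvae and 6.09 and 6.49 in controls, with a difference of 0.19 (interval -0.18 to 0.56).

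The gene for the transporter that reserpine blocks, slc18a2, read 7.28 and 7.25 in 5-HT larvae, 7.14 and 7.11 in reserpine larvae and 7.03 and 6.95 in controls. The groups did not overlap, but the difference of 0.14 (interval -0.27 to 0.55) was smaller than its standard error of 0.18. The neuronal tryptophan hydroxylase tph2 read 7.50 and 7.64 in 5-HT larvae, 7.38 and 7.65 in reserpine larvae and 7.53 and 7.65 in controls, which overlapped (0.06, interval -0.31 to 0.42). The other hydroxylases gave differences of 0.28 for tph1b (interval -0.12 to 0.69) and 0.14 for tph1a (-0.32 to 0.59). For the decarboxylase gene ddc the arrays read 5.81 and 6.28 with 5-HT, 5.25 and 6.17 with reserpine and 6.34 and 6.00 in controls. Its difference was 0.80 against reserpine replicate 1 and -0.12 against replicate 2. Monoamine oxidase, mao, read 7.99 and 7.86 in 5-HT larvae, 7.97 and 8.11 in reserpine larvae and 8.13 and 7.93 in controls (-0.12, interval -0.46 to 0.23). The serotonergic transcription factor fev differed by 0.06 (interval -0.38 to 0.51). For slc6a4a, slc6a4b, slc18a2, tph1a, tph1b, tph2, ddc, mao and fev the interval excluded a 2-fold difference in either direction.

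Of 19 serotonin receptor genes, 11 had a lower mean in 5-HT larvae, against 44.1% of all genes. On both 5-HT arrays 3 (15.8%, against 10.9% of all genes) lay below both reserpine arrays and 1 (5.26%, against 16.9%) above. The median difference of the 19 was -0.05, and it was 0.01 against reserpine replicate 1 and -0.10 against replicate 2. The receptor gene htr1fa read 6.70 and 6.72 in 5-HT larvae, 7.14 and 7.01 in reserpine larvae and 7.06 and 6.99 in controls, with a difference of -0.36 (SE 0.14, adjusted p = 0.808). It was the receptor gene with the smallest unadjusted p, and its 5-HT arrays lay below all 4 other arrays of 2 dpf. Of 33 catecholamine genes, 24 had a higher mean in 5-HT larvae (72.7%, against 54.8% of all genes). Both 5-HT arrays lay above both reserpine arrays in 6 (18.2%, against 16.9%) and below in 2 (6.06%, against 10.9%). The median difference of the list was 0.10, against 0.03 over all genes. It was 0.17 against reserpine replicate 1 and -0.01 against replicate 2. The adrenergic receptor adra1aa read 7.29 and 7.69 in 5-HT larvae, 7.08 and 7.02 in reserpine larvae and 6.99 and 6.90 in controls (0.44, SE 0.18, adjusted p = 0.815). The adrenergic receptor adra2b read 9.52 and 9.88 in 5-HT larvae, 9.40 and 9.29 in reserpine larvae and 9.27 and 9.19 in controls (0.36, SE 0.15, adjusted p = 0.818). Neither gene passed the test, although the 5-HT arrays of both lay above the other arrays of 2 dpf.

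The 12 genes with the smallest unadjusted p in each direction are given as values that did not pass, with an adjusted p of 0.772 for each. The mitochondrial ribosomal protein gene mrps12 read 8.55 and 8.82 in 5-HT larvae, 7.80 and 8.11 in reserpine larvae and 8.23 and 8.14 in controls. Its log2 difference was 0.73 (SE 0.16, interval 0.37 to 1.09) and was 0.88 against reserpine replicate 1 and 0.58 against replicate 2. The large membrane protein gene pkhd1l1.1 read 8.66 and 8.40 in 5-HT larvae, 7.94 and 7.95 in reserpine larvae and 8.0 and 8.06 in controls (0.58, SE 0.13). The Ras exchange factor rasgrf1 read 8.52 and 8.43 in 5-HT larvae, 7.87 and 7.88 in reserpine larvae and 8.03 and 8.01 in controls (0.60, SE 0.16). In these 3 genes both 5-HT arrays lay above all other arrays of 2 dpf, and both control arrays lay above both reserpine arrays. The synaptic vesicle calcium sensor syt9a read 8.56 and 8.89 in 5-HT larvae, 8.24 and 8.08 in reserpine larvae and 7.92 and 7.74 in controls (0.56, SE 0.16), so that its reserpine arrays lay between those of the other groups. The remaining 8 on the higher side were pm20d1.1, thfp5, mrpl53, zcchc14, tmc4, ca15a, inpp5ja and cxl34b.11, with differences of 0.47 for inpp5ja to 0.86 for thfp5. Both mrpl53 and zcchc14 had another probe set whose difference had the opposite sign.

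On the lower side, FCF1, an rRNA processing factor, read 5.03 and 4.88 in 5-HT larvae, 5.52 and 5.67 in reserpine larvae and 6.46 and 6.45 in controls. Its log2 difference was -0.64 (SE 0.14, interval -0.96 to -0.32), and its reserpine arrays lay between the other groups. The GABA receptor subunit gabrr3a read 6.77 and 6.72 in 5-HT larvae, 7.24 and 7.58 in reserpine larvae and 7.32 and 7.45 in controls (-0.66, SE 0.16). The fast skeletal muscle troponin T gene tnnt3a read 11.01 and 10.87 in 5-HT larvae, 11.41 and 11.61 in reserpine larvae and 11.53 and 11.51 in controls (-0.57, SE 0.16). In gabrr3a and tnnt3a the 5-HT arrays lay below all reserpine and control arrays. Another fast muscle gene, mybpc2b, which encodes a myosin-binding protein, read 9.44 and 9.80 in 5-HT larvae, 10.07 and 10.36 in reserpine larvae and 10.65 and 10.46 in controls (-0.60, SE 0.17). The remaining 8 were ifi44a3, LEKR1, wdr46, ninj2, rccd1, ccr10, pdca and trim35-20, with differences of -0.50 for ninj2 to -0.78 for ifi44a3.

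**Figure D2:**
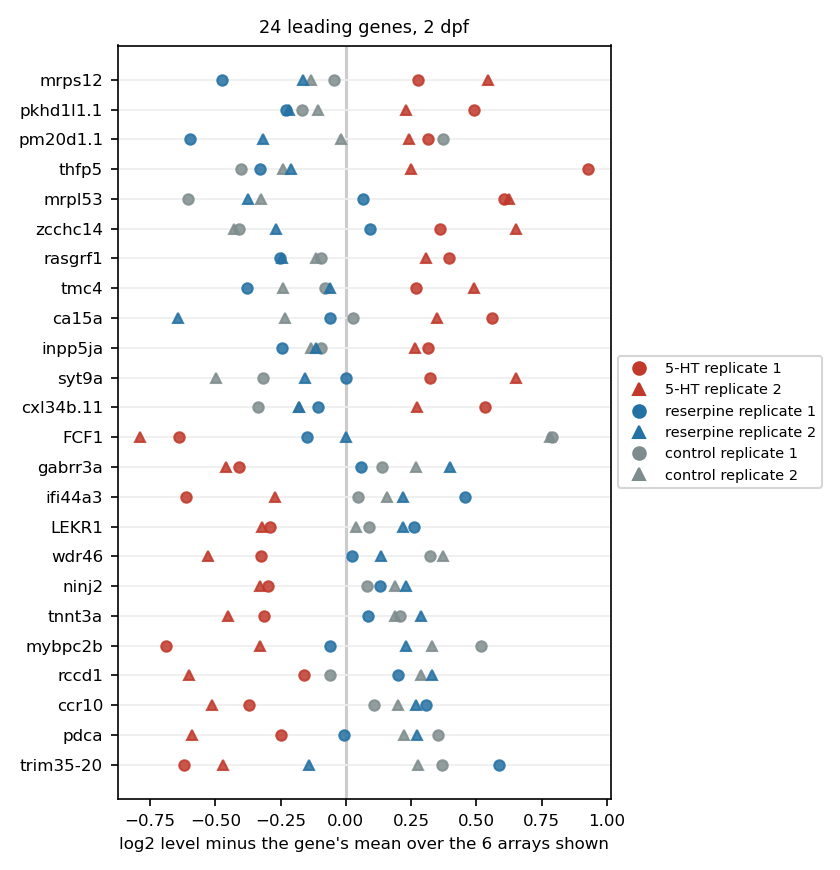
Log2 level of the 24 genes on each array of 2 dpf, less the gene's mean over the 6 arrays, with the 12 higher genes above the 12 lower ones. The 5-HT arrays do not overlap the reserpine arrays in any of the 24, which is how they were picked, and none passed the test (adjusted p = 0.772 for each, limma).

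Genes of skin ionocytes, the cells that exchange ions and acid with the water, were mostly higher in 5-HT larvae, although no member passed the test. Of 22 measured, 19 had a higher mean, and in 12 (54.5%, against 16.9% of all genes) both 5-HT arrays lay above both reserpine arrays, with none below. The median difference was 0.25, against 0.03 over all genes, and it was 0.10 against reserpine replicate 1 and 0.31 against replicate 2. The carbonic anhydrase gene ca15a read 9.77 and 9.56 in 5-HT larvae, 9.15 and 8.57 in reserpine larvae and 9.24 and 8.98 in controls (0.80, SE 0.22, interval 0.31 to 1.30). The chloride channel clcn2c read 8.82 and 8.66 in 5-HT larvae, 8.39 and 8.03 in reserpine larvae and 8.55 and 8.21 in controls (0.53, SE 0.20). The anion exchanger slc4a1b read 10.21 and 10.48 in 5-HT larvae, 9.95 and 10.03 in reserpine larvae and 9.91 and 10.06 in controls (0.36, SE 0.15). All 3 were higher on both 5-HT arrays than on any reserpine or control array. At 4 dpf the median difference of the list was 0.10, against 0.06 over all genes.

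Blood vessel genes had a median difference of 0.12 that differed little between the reserpine arrays, 0.14 against replicate 1 and 0.11 against replicate 2. Of 35 measured, 28 had a higher mean in 5-HT larvae (80.0%, against 54.8% of all genes), 12 (34.3%, against 16.9%) lay above both reserpine arrays and 1 (2.86%, against 10.9%) below. The vascular endothelial growth factor receptor kdr read 9.02 and 9.12 in 5-HT larvae, 8.73 and 8.70 in reserpine larvae and 8.86 and 8.72 in controls (0.36, SE 0.12, interval 0.07 to 0.64). The endothelial adhesion molecule esama read 10.24 and 10.51 in 5-HT larvae, 10.06 and 9.80 in reserpine larvae and 9.86 and 9.80 in controls (0.44, SE 0.15). For she the arrays read 9.54 and 9.58 with 5-HT, 9.41 and 8.79 with reserpine and 8.85 and 8.73 in controls, so that reserpine replicate 1 lay near the 5-HT arrays and replicate 2 near the controls. No vessel gene passed the test, and the adjusted p of the 3 lay between 0.798 and 0.815 in limma.

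Skeletal muscle genes were mostly lower in 5-HT larvae, and the shift of the list's median rested on reserpine replicate 2. Of 67 measured, 45 had a lower mean, against 44.1% of all genes. On both 5-HT arrays 22 (32.8%, against 10.9% of all genes) lay below both reserpine arrays and 3 (4.48%, against 16.9%) above. The median difference was -0.09, and it was 0.00 against reserpine replicate 1 and -0.20 against replicate 2. The mean log2 level of the list was 10.52 and 10.51 on the 5-HT arrays, 10.51 and 10.74 on the reserpine arrays and 10.77 and 10.76 on the controls. Reserpine replicate 1 thus lay at the level of the 5-HT arrays and replicate 2 near the controls. The muscle methyltransferase gene smyd1b, needed for myofibril assembly, read 9.93 and 9.64 in 5-HT larvae, 10.14 and 10.35 in reserpine larvae and 10.52 and 10.27 in controls (-0.46, SE 0.18, adjusted p = 0.813). At 4 dpf the median of the list was 0.03.

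Lens genes showed the lowest median of the 35 lists. Of 51 measured, 46 had a lower mean in 5-HT larvae, against 44.1% of all genes, 11 (21.6%, against 10.9%) lay below both reserpine arrays and none above. The median difference was -0.28 with both reserpine arrays, 0.00 against replicate 1 and -0.47 against replicate 2. Between arrays of the same replicate number it was -0.15 for replicate 1 and -0.47 for replicate 2. The mean level of the list was 7.71 and 7.94 on the 5-HT arrays, 7.84 and 8.39 on the reserpine arrays and 7.93 and 8.32 on the controls. In each group replicate 2 had the higher mean. The crystallin gene crygm2d15, which encodes a structural lens protein, read 9.42 and 9.06 in 5-HT larvae, 9.82 and 10.50 in reserpine larvae and 10.02 and 10.39 in controls (-0.92, SE 0.40, adjusted p = 0.818). The crystallin gene cryba1l2 read 7.68 and 7.96 in 5-HT larvae, 7.88 and 9.10 in reserpine larvae and 8.20 and 8.80 in controls, and here reserpine replicate 1 lay among the 5-HT values. The lens list had the opposite sign at 4 dpf, with a median of 0.52, against 0.06 over all genes. There 42 of the 51 genes had a higher mean in 5-HT larvae, against 11046 of all 18407 genes. At 4 dpf crygm2d15 read 10.21 and 10.11 with 5-HT, 8.62 and 9.91 with reserpine and 10.40 and 9.83 in controls. For cryba1l2 the arrays read 8.34 and 8.63 with 5-HT, 7.31 and 7.97 with reserpine and 8.65 and 8.38 in controls. In both genes the 5-HT arrays of 4 dpf lay near the controls, and reserpine replicate 1 was lowest.

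Genes of proliferating and early neural cells lay slightly lower in 5-HT larvae. Of 61 cell cycle genes, 49 had a lower mean, 16 (26.2%, against 10.9% of all genes) lay below both reserpine arrays and 2 (3.28%, against 16.9%) above. The median was -0.10, and it was -0.12 against replicate 1 and -0.08 against replicate 2. The spindle checkpoint kinase bub1bb read 10.10 and 9.92 in 5-HT larvae, 10.26 and 10.64 in reserpine larvae and 10.79 and 10.63 in controls (-0.44, SE 0.18, adjusted p = 0.815). Of 33 neural progenitor genes, 23 had a lower mean. Both 5-HT arrays lay below both reserpine arrays in 10 (30.3%, against 10.9% of all genes) and above in 1 (3.03%, against 16.9%). Their median was -0.06, and it was -0.04 against replicate 1 and -0.14 against replicate 2. The proneural factor neurog1 read 8.44 and 8.08 in 5-HT larvae, 8.96 and 8.79 in reserpine larvae and 9.12 and 8.60 in controls (-0.62, SE 0.21, adjusted p = 0.801). The eye and brain patterning factor pax6a read 9.45 and 9.59 in 5-HT larvae, 9.70 and 10.30 in reserpine larvae and 10.25 and 10.17 in controls (-0.48, SE 0.21, adjusted p = 0.818). Both lists had a median of 0.14 at 4 dpf, against 0.06 over all genes. There 44 of 61 cell cycle genes and 26 of 33 neural progenitor genes were higher in 5-HT larvae, against 11046 of all 18407 genes.

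Photoreceptor genes differed between the reserpine arrays, with a median of -0.58 for replicate 1 minus replicate 2, more than between the groups. Their median difference was 0.19 with both reserpine arrays, 0.45 against replicate 1 and -0.24 against replicate 2. Between arrays of the same number it was 0.54 for replicate 1 and -0.27 for replicate 2. The mean level of the 54 genes was 8.19 and 8.17 on the 5-HT arrays, 7.57 and 8.36 on the reserpine arrays and 7.96 and 8.23 on the controls. In 31 of the 54 (57.4%, against 21.5% of all genes) reserpine replicate 1 was the lowest of the 6 arrays. The interphotoreceptor retinoid carrier rbp3 read 9.04 and 9.0 in 5-HT larvae, 8.12 and 8.71 in reserpine larvae and 8.46 and 8.62 in controls (0.60, SE 0.23, adjusted p = 0.808). The photoreceptor guanylate cyclase gucy2d read 8.05 and 7.71 in 5-HT larvae, 7.25 and 7.54 in reserpine larvae and 7.31 and 7.48 in controls (0.48, SE 0.16, adjusted p = 0.798), and its other probe set had the opposite sign. Both genes had their 5-HT arrays above all other arrays of 2 dpf.

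Genes of digestive organs followed the replicate number. The exocrine pancreas list had a median of 0.35 with both reserpine arrays, 0.62 against replicate 1 and -0.25 against replicate 2. Its mean level was 6.96 and 8.01 on the 5-HT arrays, 6.70 and 7.66 on the reserpine arrays and 6.53 and 7.68 on the controls, so replicate 2 was higher in each group. Between arrays of the same number the median was 0.30 for replicate 1 and 0.35 for replicate 2, with no change of sign. Of the 20 pancreas genes, however, only 1 (5%, against 16.9% of all genes) had both 5-HT arrays above both reserpine arrays. In 1 (5%, against 10.9%) both lay below. Of 35 liver plasma protein genes, 30 had a higher mean in 5-HT larvae. Both 5-HT arrays lay above both reserpine arrays in 9 (25.7%, against 16.9% of all genes) and below in none (against 10.9%). Their median was 0.18, and it was 0.22 against replicate 1 and 0.12 against replicate 2. The list's mean level was 9.77 and 10.07 on the 5-HT arrays, 9.65 and 9.84 on the reserpine arrays and 8.57 and 9.92 on the controls, where control replicate 1 stood apart from the other 5. The vitamin D binding protein gc read 8.88 and 8.92 in 5-HT larvae, 7.63 and 8.71 in reserpine larvae and 7.29 and 8.60 in controls (0.73, SE 0.42, adjusted p = 0.849).

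Among smaller shifts, 11 of 28 interferon response genes (39.3%, against 16.9% of all genes) had both 5-HT arrays above both reserpine arrays and 4 (14.3%, against 10.9%) below. Their median was 0.06, and it was 0.13 against replicate 1 and 0.04 against replicate 2. Of 24 red blood cell genes, 19 had a lower mean in 5-HT larvae. Both 5-HT arrays lay below both reserpine arrays in 9 (37.5%, against 10.9% of all genes) and above in 1 (4.17%, against 16.9%). Their median was -0.08, and it was -0.05 against replicate 1 and -0.10 against replicate 2. For 49 genes of GABA, glycine and glutamate transmission the median was 0.09, and it was 0.28 against reserpine replicate 1 and -0.09 against replicate 2. The hox genes, which pattern the body axis, had a median of -0.05, which was 0.05 against replicate 1 and -0.21 against replicate 2. The lists not described here had medians of -0.04 to 0.17. No member of the 35 lists passed the test, either with all arrays or without reserpine replicate 1.

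**Figure D3:**
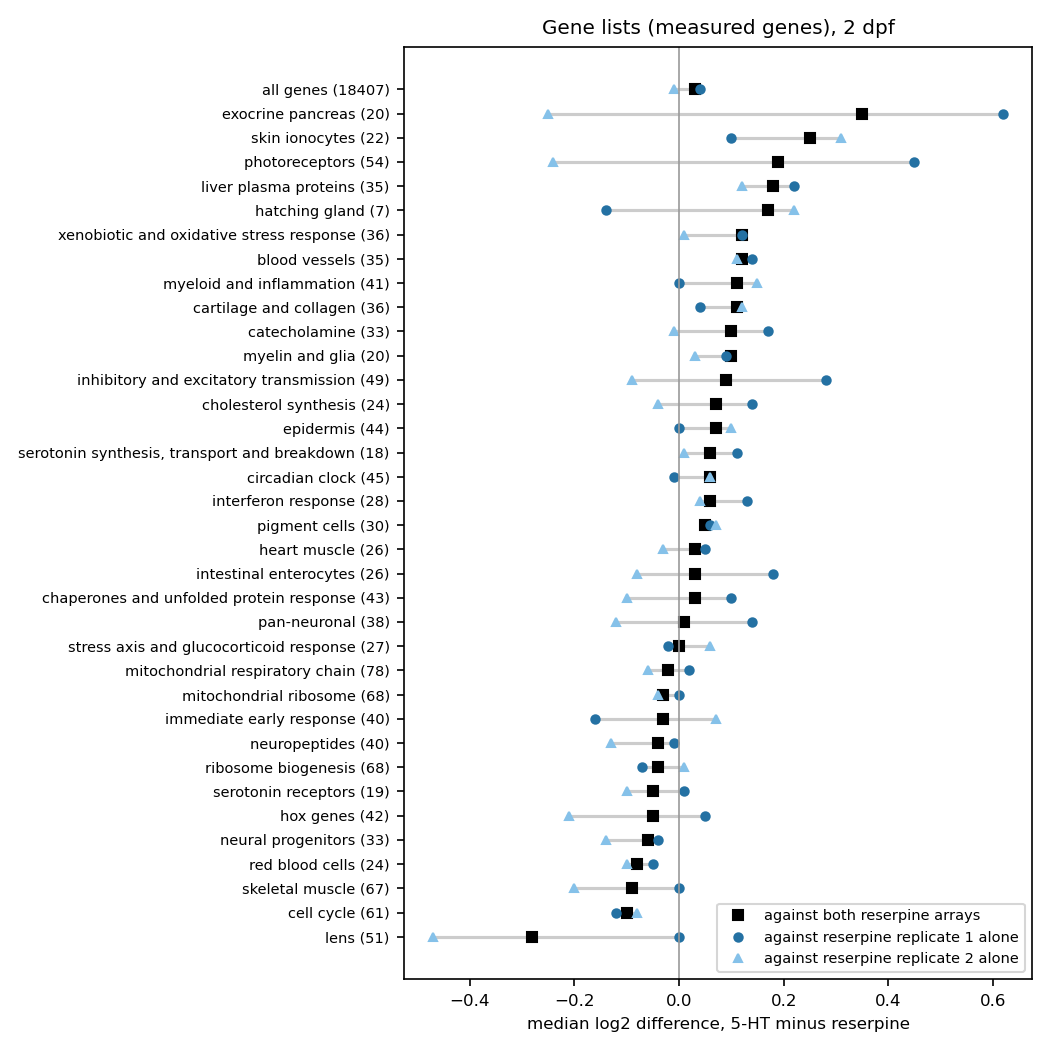
Median log2 difference, 5-HT minus reserpine at 2 dpf, over the measured genes of each list (number in brackets), with squares for both reserpine arrays, circles for replicate 1 alone and triangles for replicate 2 alone. Each single array is set against the mean of both 5-HT arrays. The medians of exocrine pancreas (0.62 and -0.25) and photoreceptors (0.45 and -0.24) change sign between the reserpine arrays. Between arrays of the same number that of exocrine pancreas does not (0.30 and 0.35), whereas that of photoreceptors does (0.54 and -0.27). The medians of skin ionocytes (0.10 and 0.31) and blood vessels (0.14 and 0.11) keep their sign between the reserpine arrays.

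The count of calls depended on reserpine replicate 1. Without it, 191 features (0.329%) passed in limma, 48 higher and 143 lower in 5-HT larvae, whereas 0 passed without reserpine replicate 2 and 0 without either 5-HT array. Of the 191 features, 173 carried no single gene name, including 141 of the 143 lower ones. The named genes called were 15 (0.0815%), all higher: foxj2, abi3b, pygo2, and4, wnk4b, wipf2b, lrtm2a, plxnb1a, poldip3, zyx, cyld3, usp8, nfatc3a, wipf3 and gorasp2. They are named after their values were seen. With the single remaining reserpine array assumed to vary like the other groups, they were higher with 5-HT by 1.03 to 1.57 on the log2 scale, while their difference from reserpine replicate 1 was -0.17 to 0.32.

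Reserpine replicate 2 lies below the 5-HT arrays in these 15 genes because that difference chose them. Reserpine replicate 1 lay above both control arrays in all 15, and the share of all genes in which it did so was not counted. That array was left out of the fit, but none of the 15 passed with it included. The choice thus also favoured genes in which it lay away from replicate 2. Reserpine replicate 2 differed from the control mean by -0.22 to 0.10. The focal adhesion protein gene zyx read 10.77 and 10.78 in 5-HT larvae, 10.83 and 9.64 in reserpine larvae and 9.61 and 9.69 in controls. The actin regulator abi3b read 9.97 and 9.79 in 5-HT larvae, 10.02 and 8.36 in reserpine larvae and 8.48 and 8.41 in controls. The actinodin gene and4, which encodes a structural protein of the fin fold, read 12.19 and 11.99 in 5-HT larvae, 12.03 and 10.77 in reserpine larvae and 10.78 and 10.87 in controls. The Wnt signalling cofactor pygo2 read 10.54 and 10.70 in 5-HT larvae, 10.61 and 9.23 in reserpine larvae and 9.24 and 9.33 in controls. With both reserpine arrays, the difference for abi3b was 0.69 (SE 0.40, interval -0.21 to 1.59, adjusted p = 0.851).

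At 4 dpf the same 15 genes had the opposite sign, and there the reserpine replicates lay together. The fit that chose them also took its spread from the 4 dpf arrays. Close replicates at 4 dpf, and with them groups that do not overlap, were thus favoured by that choice. Both 5-HT arrays of 4 dpf lay below both reserpine arrays in all 15, with differences of -1.23 to -0.66. Over all genes 43.3% did not overlap at 4 dpf, taken in either direction, and the share below alone was not counted. Only 39.0% of all genes had the same sign at both days. The gene zyx read 9.62 and 9.40 with 5-HT, 10.44 and 10.48 with reserpine at 4 dpf, and abi3b read 8.29 and 8.22 with 5-HT, 9.28 and 9.21 with reserpine and 9.21 and 9.24 in controls. With all arrays in the fit, the difference between the days did not pass for any of the 15 in limma (adjusted p of 0.13 to 0.29). Their values for this difference in the fit that chose them are not given here.

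**Figure D4:**
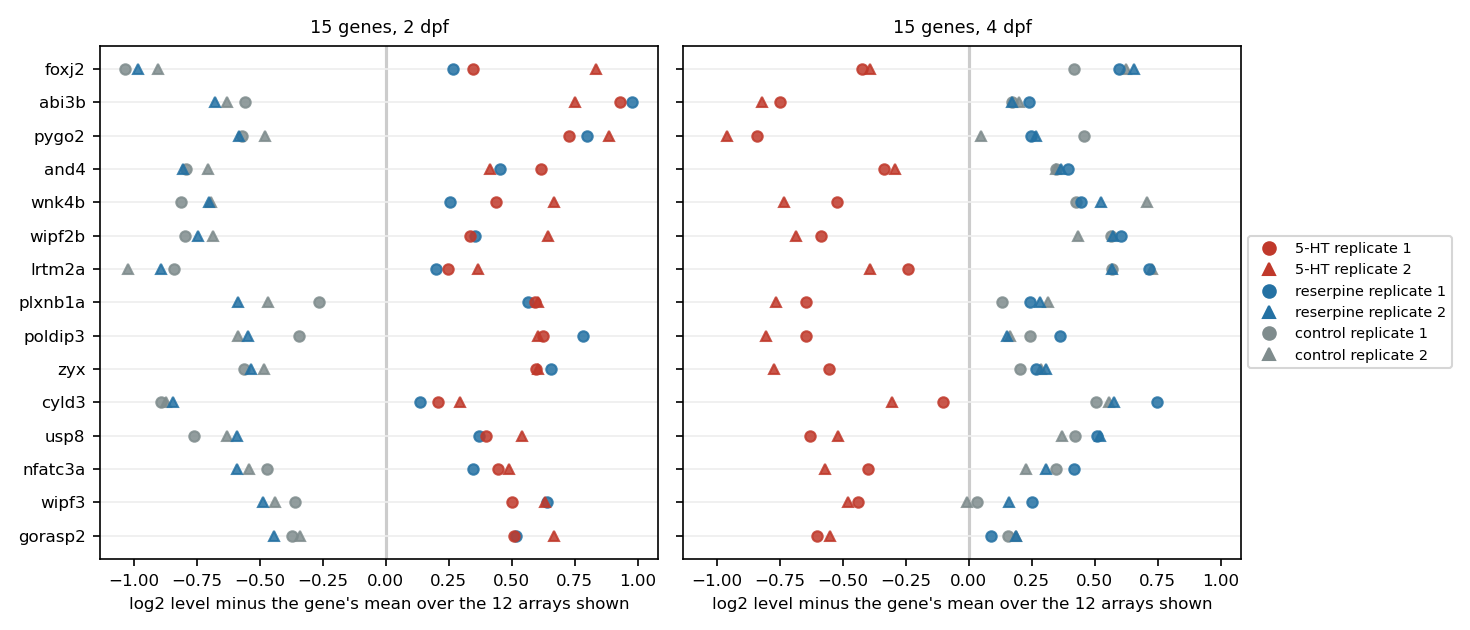
Log2 level of the 15 genes that passed without reserpine replicate 1, less the gene's mean over the 12 arrays, at 2 dpf (left) and 4 dpf (right). At 2 dpf both 5-HT arrays and reserpine replicate 1 (circles) lie above reserpine replicate 2 and the controls. The choice of the genes set reserpine replicate 2 below the 5-HT arrays and favoured the split between the reserpine arrays. At 4 dpf both 5-HT arrays lie below both reserpine arrays in all 15.

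The genes that differed most between the reserpine replicates were of several kinds. The AP-1 transcription factor gene fosl1a read 8.43 and 8.61 in 5-HT larvae, 10.41 and 7.48 in reserpine larvae and 7.67 and 7.65 in controls, and reserpine replicate 1 was the highest of the 6 arrays. The embryonic globin hbbe3 read 6.94 and 6.34 in 5-HT larvae, 8.46 and 6.65 in reserpine larvae and 7.13 and 6.86 in controls, again highest on reserpine replicate 1. The cryptochrome cry1a, a light-induced clock repressor in zebrafish, read 10.17 and 7.77 in 5-HT larvae, 10.09 and 7.34 in reserpine larvae and 10.21 and 7.54 in controls. Here replicate 1 was higher in every group, and at 4 dpf it was so too, at 10.90 against 7.76 with 5-HT and 10.91 against 7.42 with reserpine. The ammonium transporter rhcga and the early response gene fosab also had replicate 1 above replicate 2 in each group of 2 dpf. Among 45 circadian clock genes, 16 (35.6%) had all 3 replicate 1 arrays of 2 dpf above all 3 replicate 2 arrays and 4 (8.89%) below, against 10.1% and 10.7% of all genes. Whether a replicate number stands for a shared collection time is not given in the sources used here.

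On the other side, the cone transducin gnat2 read 10.36 and 10.71 in 5-HT larvae, 8.30 and 11.03 in reserpine larvae and 9.64 and 10.65 in controls. The cone phototransduction genes gnb3b and gngt2b and the outer segment genes prph2a and prph2b were likewise lowest on reserpine replicate 1, with log2 differences of replicate 1 minus replicate 2 of -2.36 for gnb3b and -2.08 for gngt2b. The trypsin gene prss59.2 read 8.12 and 11.42 in 5-HT larvae, 7.52 and 10.47 in reserpine larvae and 7.09 and 10.44 in controls, following the replicate number in each group. The mitochondrially encoded ND6 read 8.87 and 8.74 in 5-HT larvae, 7.92 and 10.10 in reserpine larvae and 9.71 and 10.07 in controls, so that reserpine replicate 2 lay with the controls.

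**Figure D5:**
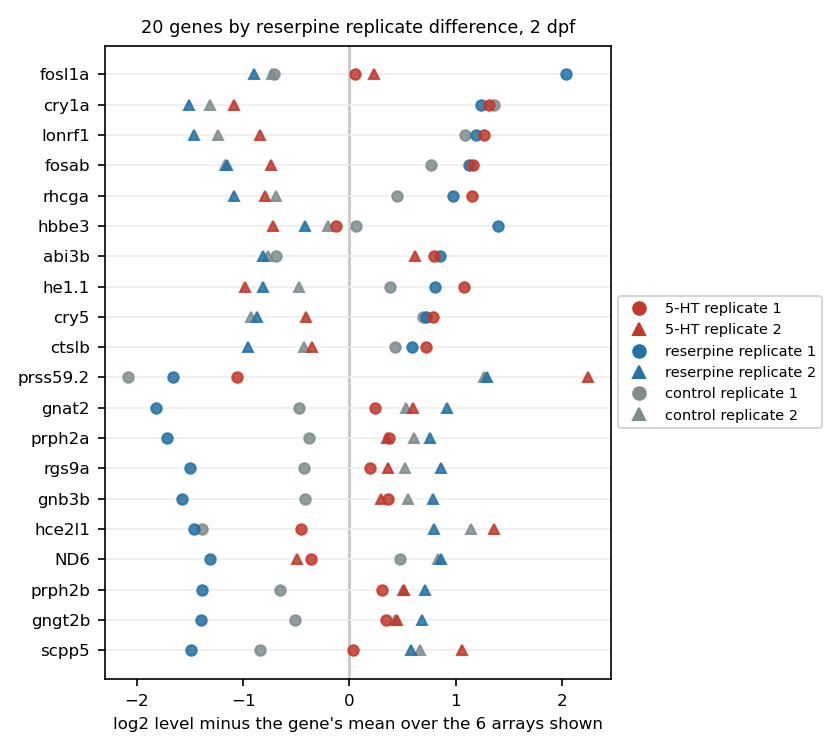
Log2 level of the 10 genes with the largest and the 10 with the most negative difference of reserpine replicate 1 minus replicate 2 at 2 dpf, less the gene's mean over the 6 arrays. In cry1a, lonrf1 and prss59.2 the 3 groups split by replicate number (circles against triangles), whereas in fosl1a and gnat2 reserpine replicate 1 lies apart from the other 5 arrays.

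The contrast was compared between the days with limma. At 4 dpf 0 of 58127 features (0%) passed between 5-HT and reserpine larvae, with 6270 (10.8%) at an unadjusted p under 0.05 and a smallest adjusted p of 0.146. The difference between the days, 2 dpf minus 4 dpf, also gave 0 passing features (0%), with 7045 (12.1%) at an unadjusted p under 0.05 and a smallest adjusted p of 0.13. Without reserpine replicate 1 of 2 dpf, 1695 features (2.92%) passed the test of the difference between days and 421 (0.724%) passed at 4 dpf. The same count passed at 4 dpf without reserpine replicate 2 of 2 dpf, and the 4 dpf contrast uses neither array. That count is thus not specific to leaving out replicate 1. As a description across genes, which are not independent replicates, the differences of the days correlated at -0.35. Of 18407 genes, 7170 (39.0%) had the same sign at both days. These 2 contrasts share no arrays.

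All 8 genes with the smallest unadjusted p for the difference between days had opposite signs at 2 and 4 dpf, which this ranking favours. The adhesion receptor adgrb2 read 8.73 and 8.81 with 5-HT, 8.48 and 8.05 with reserpine and 8.08 and 7.92 in controls at 2 dpf. At 4 dpf adgrb2 read 8.67 and 8.44 with 5-HT, 9.59 and 9.47 with reserpine and 9.50 and 9.50 in controls, and the differences of 0.50 and -0.98 gave a difference between days of 1.48 (adjusted p = 0.13). The splicing regulator mbnl3 differed by 0.57 at 2 dpf and by -0.94 at 4 dpf (difference between days 1.51, adjusted p = 0.13). In the other direction, the respiratory complex I subunit ndufb4 read 6.57 and 6.98 with 5-HT, 7.14 and 7.39 with reserpine and 7.86 and 8.06 in controls at 2 dpf. At 4 dpf ndufb4 read 7.59 and 7.61 with 5-HT, 6.69 and 6.61 with reserpine and 6.50 and 6.99 in controls, so that the difference was -0.49 at 2 dpf and 0.95 at 4 dpf. FCF1 had the same arrangement, with -0.64 at 2 dpf and 0.58 at 4 dpf. At both days the 5-HT arrays of adgrb2, mbnl3, ndufb4 and FCF1 did not overlap the reserpine arrays, and none passed. Of all genes 27.8% did not overlap at 2 dpf and 43.3% at 4 dpf, but the ranking of the 8 also favoured genes with little spread.

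Each treatment against the shared control of 2 dpf gave few calls. In limma, 4 features (0.00688%) passed between 5-HT and control larvae, where 8647 (14.9%) had an unadjusted p under 0.05. The named gene among the 4 was FCF1, lower with 5-HT by a log2 difference of -1.50 (adjusted p = 0.0382). Between reserpine and control larvae 0 (0%) passed, where 2424 (4.17%) had an unadjusted p under 0.05. Because both contrasts use the same 2 control arrays, they are set side by side here and not correlated. For skeletal muscle, the median difference from control was -0.20 with 5-HT and -0.12 with reserpine. For the liver list it was 0.76 with 5-HT and 0.60 with reserpine, with the control replicates at 8.57 and 9.92. For skin ionocytes it was 0.21 with 5-HT and -0.04 with reserpine, and for blood vessels it was 0.19 with 5-HT and 0.03 with reserpine.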

How the data were processed

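The deposited table holds 1 value per feature and array for 73244 features, which the authors gave as log2 values with 2 decimals, read as such from their range. How the authors normalized them is not given in the sources used here. No further scaling was applied. With only 2 arrays a group, the number of arrays limits the precision, and all p-values measure the spread between pools of larvae. The main fit had no term for the replicate number, so that spread includes differences shared by arrays of the same number.

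Features at or above the 25th percentile of an array on 2 or more of the 12 arrays were kept for testing (58127). The lmFit and eBayes functions of limma 3.58.1 (R 4.3.3) were applied to 12 arrays with 6 group means (6 residual and 3.53 prior degrees of freedom), two-sided, with Benjamini-Hochberg adjustment and a threshold of 0.05. The script was tested on simulated data. Features carrying 1 gene symbol (20491) were named from the platform annotation, of which 20013 matched RefSeq, and a gene was represented by its probe set with the highest mean, giving 18407 genes. Those with several symbols (842) or none (51911) were not named. Of the tested features, 8932 had values identical to those of another feature.

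Since no gene passed, named genes were the 12 with the smallest unadjusted p per direction without group overlap and with established names, the 3 with the smallest unadjusted p per list, all serotonin synthesis and transport genes, the 8 with the smallest unadjusted p for the difference between days, and 10 per direction by reserpine replicate difference. The text gives a selection. Members and the 35 lists (1334 of 1544 symbols found) were chosen with earlier results of these data known. The alternatives tried were replicates left out, a replicate block, other filters, normalizations, variance models and sets of arrays.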

Additional observations from a re-analysis of the deposited data

How the results depend on the processing

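Leaving out 1 array of the contrast at a time gave 0 to 191 passing features and 0 to 15 passing genes at 2 dpf, 0 to 421 features at 4 dpf and 0 to 1695 for the difference between days. The high values came without reserpine replicate 1, and 421 at 4 dpf also came without reserpine replicate 2. Counting features of identical values once, an alternative chosen after seeing the data, gave 1 passing feature at 2 dpf. That fit tested 52329 features and re-estimated the variance model on them. Which of these changes mattered was not tested. No feature passed with only the 6 or the 4 arrays, with no filter or a 50th percentile filter, with a trend or robust variance, or after quantile normalization or median centring. With the replicate number as a block, 0 features passed. The deviations of same-numbered replicates correlated at 0.20 between 5-HT and reserpine, but the labels do not say what a number shares, so the arrays were not taken as paired. Over these alternatives the 24 leading genes gave 356 refitted values, of which none passed in limma and none changed sign. The genes were picked for groups that do not overlap, so leaving out an array could not change their sign. Filters, variance models, the block and sets of arrays left the difference itself unchanged, so the kept sign is no support. Among the other named genes, abi3b (1.52, adjusted p = 0.0152) and wnk4b (1.25, adjusted p = 0.0495) passed without reserpine replicate 1. Of 525 refitted list medians, 31 moved beyond the spread between replicates. Signal over background was not used here.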

Other observations

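Cartilage and collagen genes were not uniform at 2 dpf. The cartilage collagen gene col9a1b read 10.17 and 9.04 in 5-HT larvae, 10.43 and 10.58 in reserpine larvae and 10.77 and 10.66 in controls, a log2 difference of -0.90 (SE 0.35, adjusted p = 0.808 in limma). The cartilage matrix gene matn3a read 11.20 and 10.66 in 5-HT larvae, 11.19 and 11.66 in reserpine larvae and 11.65 and 11.66 in controls (-0.50, SE 0.23). The fibril-associated collagen gene col12a1a was on the other side, at 11.81 and 11.60 in 5-HT larvae, 11.42 and 11.07 in reserpine larvae and 11.28 and 11.09 in controls (0.46, SE 0.17). Over the 36 measured genes of the list, 27 had a higher mean in 5-HT larvae (75%, against 54.8% of all genes) and the median was 0.11.

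The early response gene egr1 read 9.46 and 9.69 in 5-HT larvae, 9.32 and 8.09 in reserpine larvae and 8.53 and 8.40 in controls, so that reserpine replicate 1 lay near the 5-HT arrays and replicate 2 below the controls (0.87, SE 0.36, adjusted p = 0.817 in limma). At 4 dpf egr1 read 9.57 and 9.21 with 5-HT, 10.66 and 9.94 with reserpine and 10.45 and 10.39 in controls. In egr1 the 5-HT arrays lay above both reserpine arrays at 2 dpf and below both at 4 dpf, and it passed neither test. The stress response factor atf4b read 12.16 and 12.11 in 5-HT larvae, 12.12 and 11.46 in reserpine larvae and 11.65 and 11.38 in controls at 2 dpf. At 4 dpf the log2 difference of atf4b, 5-HT minus reserpine, was -0.76. Its 5-HT and reserpine arrays overlapped at 2 dpf and lay apart at 4 dpf, where the 5-HT arrays were the lowest.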
